A study of Homo sapiens with 8 samples.

Results

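The chromosomal passenger complex is the mitotic kinase assembly built from AURKB, BIRC5, INCENP and CDCA8, and these 4 genes were chosen by name as its annotated core subunits. All 4 had at least 1 splicing event with reads in both RNA fractions, out of 11691 genes with events in whole cells and 9926 in the cytoplasm. Their events numbered 30 of 89379 in whole cells and 20 of 43559 in the cytoplasm. RNA came from U2OS cells, an established human osteosarcoma line, that received 20 nM of an siRNA, either EGFP (the control) or CHERP #2, and were harvested 48 h later. CHERP is a nuclear protein tied to the U2 part of the spliceosome. Each siRNA had 2 whole-cell and 2 cytoplasmic libraries, 8 in all, described as biological duplicates. A single CHERP siRNA was sequenced, so an effect of the siRNA other than on CHERP cannot be told apart from loss of CHERP. Reads on events summed to between 29409956 and 35664568 per library in whole cells and to between 5370756 and 6580099 in the cytoplasm.

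The complex moves during mitosis from chromosome arms to inner centromeres and then to the spindle midzone. AURKB is the kinase, INCENP is the scaffold that binds and activates it, and BIRC5 (survivin) with CDCA8 (borealin) binds the other end of INCENP and places the complex on chromatin. It corrects faulty attachments of chromosomes to spindle fibres and acts in cytokinesis. Transcripts of such mitotic genes are known to accumulate in G2 and M phase. In bulk RNA, fewer cells in those phases and less RNA per cell cannot be told apart.

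The targeted gene was measured first. CHERP had 103 and 77 reads on its events in the control whole-cell libraries and 3 and 10 with CHERP siRNA, a log2 fold change of -3.45 (SE 0.61, adjusted p = 0.0206, limma). The libraries labelled CHERP siRNA were thus the ones with low CHERP. In the cytoplasm its single event had 31 and 21 reads in control libraries and 3 and 4 with CHERP siRNA, below the filter of 20 reads on average. Of 6 mesenchymal and bone cell markers, only 2, VIM and FN1, could be tested in each fraction, with no call. Of 4 blood markers, 0 could be tested. A gene needs splicing events with enough reads to be tested, so an untested marker does not show absence. KRT8, a keratin, was the 1 marker tested of 5 epithelial ones. Its log2 fold change was -0.53 in whole cells (adjusted p = 0.0957, limma). In the cytoplasm it was -0.50 and passed (adjusted p = 0.0284, limma).

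All 4 complex genes had lower levels with CHERP siRNA than with EGFP siRNA in every library of both fractions, so the groups did not overlap. With 2 libraries per group such separation says little, and the share of all genes that showed it was not counted. The call passed the test for AURKB and CDCA8 in whole cells, and for AURKB, BIRC5 and CDCA8 in the cytoplasm. The level of a gene is the sum over its skipped exon and alternative splice site events of reads divided by effective length, scaled between libraries, and is given here per event. Overlapping events share reads, so read numbers are not independent molecules. In all, 2 of 4 members were called lower in whole cells, where 13.3% of 9660 genes were, and 3 of the 3 tested members in the cytoplasm, where 18.7% of 7293 genes were. The members, and the gene lists below, were chosen with earlier results of these data known. These counts therefore describe the genes and are no test of them as a set. The median log2 fold change of the members was -0.69 in whole cells and -1.03 in the cytoplasm, beside 0.02 and 0.01 over all genes tested.

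AURKB, the catalytic subunit, had 1977 and 1913 reads on 13 events in control whole-cell libraries and 1339 and 1177 with CHERP siRNA. Its level per event was 0.678 and 0.580 in controls and 0.423 and 0.389 with CHERP siRNA. The level fell to 64.5% of control, a log2 fold change of -0.63 (SE 0.15, adjusted p = 0.0406, limma). In the cytoplasm the level was 0.800 and 0.924 in controls and 0.370 and 0.477 with CHERP siRNA. There it fell to 49.1% of control (log2 fold change -1.03, SE 0.17, adjusted p = 0.0139, limma). Both CHERP siRNA libraries lay under both controls in each fraction. In whole cells the AURKB call was lost without filtering (adjusted p = 0.0748) and when the first control, the first CHERP or the second CHERP library was left out, with adjusted p up to 0.243. In the cytoplasm it was lost without the second control library (adjusted p = 0.0594).

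CDCA8, the subunit also called borealin, showed the lowest fold change of the 4 in whole cells. It had 1346 and 1682 reads on 3 events in control libraries and 715 and 697 with CHERP siRNA. The level per event was 2.08 and 2.31 in controls and 0.972 and 1.00 with CHERP siRNA. It fell to 44.9% of control (log2 fold change -1.15, SE 0.13, adjusted p = 0.00975, limma). In the cytoplasm it had 548 and 528 reads on 2 events in controls against 311 and 221, and fell to 47.8% of control (log2 fold change -1.06, SE 0.13, adjusted p = 0.00741, limma). CDCA8 passed in both fractions under each scaling, pseudocount and filter tried, and its whole-cell adjusted p rose to just above the threshold without the first CHERP library.

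BIRC5, the small subunit known as survivin, had 2355 and 2048 reads on 10 events in control whole-cell libraries and 1303 and 1529 with CHERP siRNA. The level per event was 1.42 and 1.07 in controls and 0.712 and 0.873 with CHERP siRNA, 63.8% of control. The log2 fold change of -0.64 (SE 0.21) did not pass the test (adjusted p = 0.0804, limma). In the cytoplasm the level was 1.18 and 1.07 in controls and 0.716 and 0.734 with CHERP siRNA. There it fell to 64.5% of control (log2 fold change -0.63, SE 0.11, adjusted p = 0.0160, limma). The cytoplasmic call was lost without filtering (adjusted p = 0.0514), with the 1 event with the most reads (adjusted p = 0.0535), and without the first control, first CHERP or second CHERP library (adjusted p up to 0.0688).

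INCENP, the scaffold, rested on the fewest reads. Its 2 whole-cell events had 165 and 139 reads in control libraries and 95 and 87 with CHERP siRNA, and the level was 58.8% of control. The log2 fold change of -0.73 (SE 0.20) did not pass the test (adjusted p = 0.0595, limma). In the cytoplasm its 1 event had 25 and 31 reads in controls and 6 and 8 with CHERP siRNA, 17.5 on average and below the filter. In the fit without a filter its log2 fold change was -1.93 (SE 0.24, adjusted p = 0.0314, limma).

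The whole-cell calls of BIRC5 and INCENP depended on the settings. When limma's prior variance followed the mean level, all 4 members passed in whole cells, with adjusted p of 0.0106 for BIRC5 and 0.0458 for INCENP, and 3546 genes were called in place of 2579. With a pseudocount of 0.1 all 4 also passed, with adjusted p of 0.0490 for BIRC5 and 0.0417 for INCENP. INCENP passed as well with its 1 event with the most reads (adjusted p = 0.0230), with reads not divided by length (adjusted p = 0.0423) and without the second control library (adjusted p = 0.0271).

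**Figure D1:**
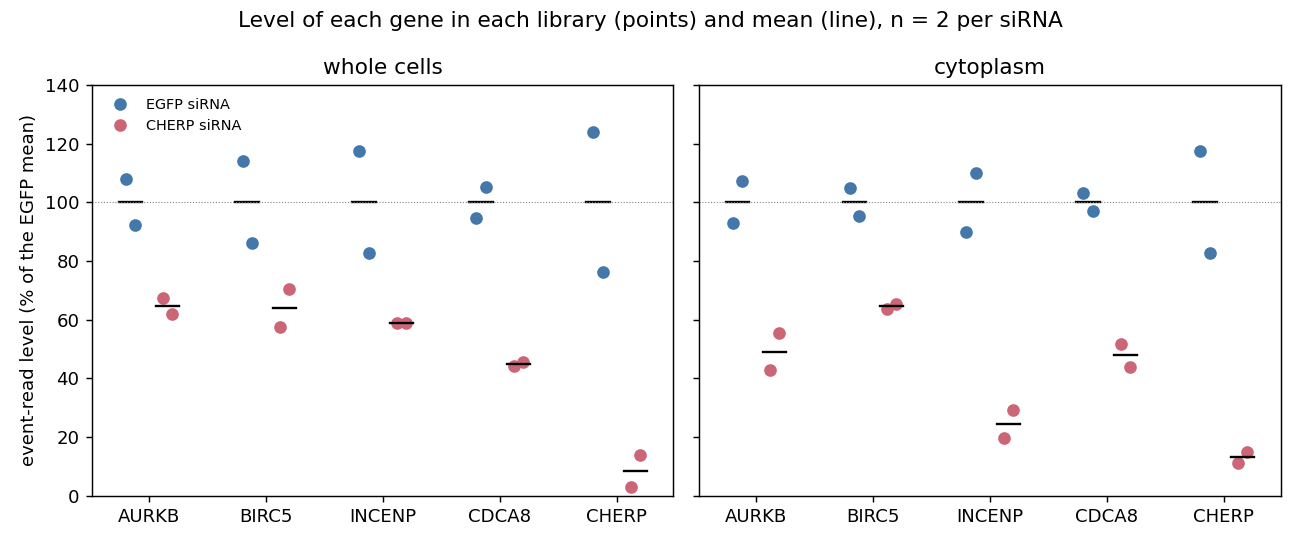
Level of the 4 complex genes and of CHERP in each library, as percent of the mean of the EGFP siRNA libraries of the fraction, for whole cells (left) and cytoplasm (right). Points are libraries and lines are means of 2. Both CHERP siRNA points lie below both control points for every gene, from 64.5% of control for AURKB to 44.9% for CDCA8 among the complex genes in whole cells.

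The change of a gene was then compared between the fractions, using events present in both. The difference between the cytoplasmic and the whole-cell log2 fold change was 0.01 for BIRC5 (SE 0.24), 0.04 for CDCA8 (SE 0.18) and -0.41 for AURKB (SE 0.24). None of the 3 passed (adjusted p = 0.998 for each, limma), and 0 of 6505 genes did, 0% of those tested. The unadjusted p of AURKB was 0.132. INCENP was not in this test because its reads were below the filter. The effective length of a junction in the tables, which follows read length, was 144 bases in whole cells and 73 in the cytoplasm, and depth differed too, so a difference in level between them cannot be told apart from the library preparation.

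The authors' own expression table for the cytoplasm holds means of normalized counts for 2 conditions that its header calls C1 and C2, without naming the siRNA. It lists only genes past their threshold, 6757 of them, of which 2823 (41.8%) are lower in C1. CHERP has an authors' mean of 209 in C1 and 1685 in C2. AURKB has authors' means of 916 in C1 and 1455 in C2. BIRC5 has 1518 and 2198, CDCA8 has 1440 and 2587, and INCENP has 764 and 1833. All 4 are thus lower in the condition in which CHERP is lower. These means have no error attached, and their ratios come from another quantification than the event reads above.

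The genes that regulate, recruit or receive the complex were examined as a list of 28, of which 25 could be tested in whole cells. Of these, 17 fell, 3 rose and 5 did not pass the test, with a median log2 fold change of -0.78. In the cytoplasm 16 of 22 fell, 3 rose and 3 did not pass, with a median of -0.90. The 3 with the largest change in whole cells were KIF20A, the kinesin that carries the complex to the midzone (-2.12, SE 0.15, adjusted p = 0.00759), CENPA, the centromeric histone (-1.79, SE 0.18, adjusted p = 0.00807), and KLHL21, an adaptor of the CUL3 ubiquitin ligase that acts on AURKB, which rose by 1.73 (SE 0.32, adjusted p = 0.0225). In the cytoplasm they were KIF20A (-2.05), CDCA2 (-2.03), a phosphatase-targeting chromatin protein, and CENPA (-1.86). KLHL21 rose in the cytoplasm too, by 1.34. Its whole-cell levels, summed over its events, were low, at 0.115 and 0.0617 in controls and 0.348 and 0.263 with CHERP siRNA. USP9X, a deubiquitinase, and CBX3, a heterochromatin protein, also rose in both fractions, by 0.61 and 0.66 in whole cells and by 0.39 and 0.50 in the cytoplasm.

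Other genes of the cell cycle moved in the same direction. All 18 G2/M genes tested in whole cells and all 13 tested in the cytoplasm fell, with medians of -1.28 and -1.36. The 3 with the largest change in whole cells were TOP2A (-1.77), MKI67 (-1.62) and HMMR (-1.57), and in the cytoplasm MKI67 (-2.89), TOP2A (-1.96) and CENPF (-1.79). Cytoplasmic MKI67 had levels of 0.0624 and 0.144 in controls and 0.00471 and 0.00375 with CHERP siRNA. The latter lie below the pseudocount of 0.01, so its fold change depends on that setting. Of the G1/S genes, which act in DNA replication and its onset, all 14 tested in whole cells had lower levels, and 13 of these passed the test. All 12 tested in the cytoplasm were called lower. The medians were -1.45 and -1.43. Over all genes tested, 13.3% were called lower in whole cells and 18.7% in the cytoplasm. RRM2 (-2.14), MCM6 (-2.10) and MCM2 (-1.93) led in whole cells, and MCM6 (-2.10), RRM2 (-1.92) and SLBP (-1.84) in the cytoplasm. The members' medians of -0.69 and -1.03 lay nearer to 0 than the medians of both cell cycle lists. No test was made of that difference.

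**Figure D2:**
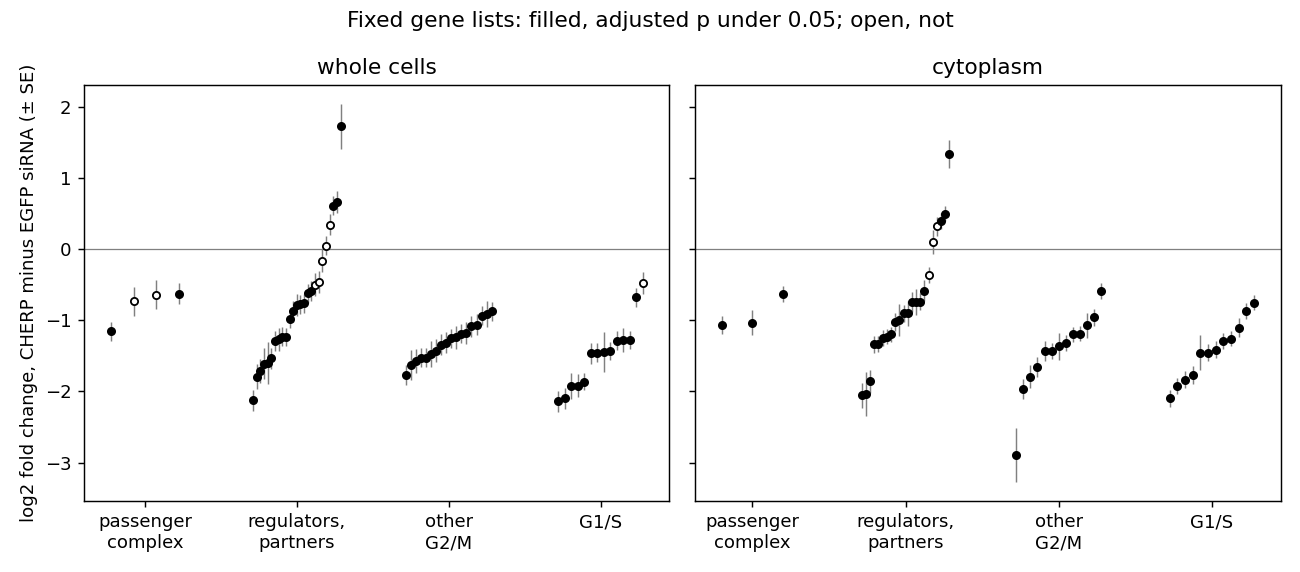
Log2 fold change (CHERP minus EGFP siRNA) with its SE for every tested gene of 4 lists, in whole cells (left) and cytoplasm (right). Filled points passed an adjusted p of 0.05 in limma and open points did not. The complex genes lie between -1.15 and -0.63 in whole cells, and every G2/M point is below 0.

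Genes whose pattern over the 8 libraries lay closest to the mean of the members were found among 7059 genes that passed the filter in both fractions. This mean used 3 members, since INCENP was below the filter in the cytoplasm. The 5 nearest were CD40 at a Euclidean distance of 0.135 in log2 units, TUBB at 0.162, CDC45 at 0.177, CD9 at 0.189 and CKLF at 0.194, beside a median distance of 1.87 over all genes. The members themselves lay at 0.431 for AURKB, 0.523 for BIRC5 and 0.617 for CDCA8, farther from their own mean than these 5 genes. The 5 were selected as the nearest of 7059, so this order is no test of how alike the members are.

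Promoter sequence was examined for a motif of cell cycle genes. RefSeq windows (build GRCh38.p14) of 250 bases before to 50 after the start were found for CDCA8, INCENP and AURKB, the last with 2 starts, while BIRC5 had no entry. The letters TTTGAA, the core of the cell cycle genes homology region, were searched on both strands (TTCAAA on the other) and were present once each in the CDCA8 and INCENP windows and in neither AURKB window. They occur in 15.2% of all 35116 windows. The CCAAT box, searched as CCAAT and as ATTGG, occurs in 34.6% of all windows, 3 times each in those of CDCA8 and INCENP and 1 time in each AURKB window. In CDCA8 one ATTGG overlaps the TTTGAA match. The 150 bases before the start are shown for these 2 genes, with both motifs in capitals, because they hold both. A match of letters describes the window and is no evidence of binding.

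CDCA8: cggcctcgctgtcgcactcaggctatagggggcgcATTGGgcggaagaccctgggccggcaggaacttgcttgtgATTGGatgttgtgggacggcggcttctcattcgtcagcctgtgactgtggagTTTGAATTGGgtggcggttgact
INCENP: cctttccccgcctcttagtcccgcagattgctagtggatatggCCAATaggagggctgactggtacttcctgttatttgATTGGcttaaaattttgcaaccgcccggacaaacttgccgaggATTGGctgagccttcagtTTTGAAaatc

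Splicing of the members was measured as the inclusion level of each event, from 0 to 1, which is the length-corrected share of reads that include the segment. No event of the 4 genes passed an adjusted p of 0.05 in either fraction: 0 of 30 in whole cells and 0 of 20 in the cytoplasm, in the quasi-binomial model with dispersions moderated in limma. At an unadjusted p under 0.05 there were 5 of 30 (16.7%) in whole cells, where 7.58% of all events were, and 5 of 20 (25%) in the cytoplasm, where 3.12% were. All 10 had lower inclusion with CHERP siRNA. The 5 in the cytoplasm were all of BIRC5, and those in whole cells were 3 of BIRC5 and 2 forms of the same AURKB exon. Several of them share reads, so they are not independent and do not describe the complex as a set. This model called 3 of 89379 events in whole cells (0.00336%) and 0 of 43559 in the cytoplasm (0%), so its lack of calls for the members says little. A second model took the dispersion from those events whose rarer form had 10 or more reads. It called 961 events in whole cells and 410 in the cytoplasm, and 0 of the members' events in either. At an unadjusted p under 0.05 it had 7 of 30 and 10 of 20, where 8.50% and 8.47% of all events were. A limma fit on log2 odds also called 0. It had 2 of 30 and 4 of 20 at an unadjusted p under 0.05, where 8.39% and 8.32% of all events were. The p-values of the second model are given below as the alternative.

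Most member events carried few reads of the rarer form. Only 12 of 30 in whole cells and 11 of 20 in the cytoplasm had 10 or more such reads over the 4 libraries. Of the 18 events seen in both fractions, 10 had lower inclusion with CHERP siRNA in both and 5 had higher inclusion in both. Several describe the same exon with other neighbours. No member event passed in the test of the difference between fractions, in which 4 of 33604 events did. At an unadjusted p under 0.05 none of the members' events were found there, where 6.48% of all events were.

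BIRC5, on chromosome 17 from 76210267 to 76221717 (hg19, plus strand), had 12 events in whole cells and 10 in the cytoplasm. Its reference transcript has 4 exons and encodes 142 residues. An alternative 69-base exon between exons 2 and 3 is absent from the reference transcript and keeps the frame, giving 165 residues. The 118-base exon at chr17:76212745-76212862 is exon 3 of the reference transcript, wholly coding, and leaving it out shifts the frame and gives 137 residues. Exon 3 is shown in capitals with 20 intron bases on each side, because transcripts with and without it encode different ends of the protein.

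118-base exon: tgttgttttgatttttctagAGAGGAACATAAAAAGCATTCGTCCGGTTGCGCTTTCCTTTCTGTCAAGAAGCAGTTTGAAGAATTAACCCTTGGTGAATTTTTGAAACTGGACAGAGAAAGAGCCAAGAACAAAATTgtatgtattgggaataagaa

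The 69-base exon was included at levels of 0.0984 and 0.107 in control whole-cell libraries and 0.0666 and 0.0776 with CHERP siRNA. Its cytoplasmic levels were 0.216 and 0.306 in controls and 0.138 and 0.142 with CHERP siRNA, from 46 and 61 inclusion reads against 18 and 17. The log2 odds ratio was -0.53 (95% interval -1.09 to 0.03) in whole cells and -1.10 (-1.79 to -0.42) in the cytoplasm. All such intervals of events use a normal quantile and leave out the few degrees of freedom of the test. They are therefore narrower than its p-values imply. Neither fraction passed, with adjusted p of 0.546 and 0.608, and of 0.675 and 0.116 in the alternative.

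The segment from the start of the 69-base exon to the end of exon 3, 816 bases with the intron between them, appears in several overlapping events, of which the 2 with the most reads of the rarer form are given first. As an alternative 3′ splice site it had 64 and 78 inclusion reads in control whole-cell libraries and 12 and 26 with CHERP siRNA, with levels of 0.0362 and 0.0510 against 0.0126 and 0.0216. The log2 odds ratio was -1.31 (95% interval -2.05 to -0.58), with an adjusted p of 0.656 and of 0.0752 in the alternative. Cytoplasmic levels were 0.0412 and 0.0660 against 0.0208 and 0.0158, a log2 odds ratio of -1.54 (-2.39 to -0.70). As a retained intron it had levels of 0.140 and 0.192 against 0.0585 and 0.0676 in whole cells and of 0.0442 and 0.0310 against 0.0289 and 0.0086 in the cytoplasm. These levels were lower with CHERP siRNA and did not pass, with adjusted p of 0.434 and 0.668. The splice site event also counts reads of the 69-base exon, so it does not measure retention alone, and both share inclusion reads. Other events of the segment went the other way on at most 2 reads of the rarer form. As a skipped exon it was at 0.793 and 1 in control whole-cell libraries and at 1 and 0.836 in cytoplasmic ones, and as an intron retained beside a 101-base exon it was at 1 and 0.905 in control whole-cell libraries, with all CHERP siRNA libraries at 1.

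Exon 3 and a 165-base exon were added to the events given in full after their values were seen. Exon 3, measured between exons 2 and 4, had levels of 0.886 and 0.935 in control whole-cell libraries and 0.803 and 0.866 with CHERP siRNA. Cytoplasmic levels were 0.882 and 0.899 against 0.734 and 0.817, with an adjusted p of 0.608 and of 0.0623 in the alternative, the lowest of any member event there. The junction that skips the exon had 39 and 18 reads in control whole-cell libraries and 44 and 31 with CHERP siRNA, while reads that include it went from 553 and 470 to 327 and 363. The unscaled skipping reads were therefore no fewer on average, although the inclusion reads were. The 165-base exon at chr17:76218909-76219073, is absent from the reference transcript. Its levels depended on the neighbours. Measured between exons 2 and 4, they were 0.135 and 0.352 in control whole-cell libraries and 0.0207 and 0.0567 with CHERP siRNA, from 13 and 21 inclusion reads against 2 and 4. In the cytoplasm these levels were 0.112 and 0.206 against 0.0486 and 0.0177. The inclusion reads also count the exon itself and its junction to exon 4. The junction from exon 2 straight to this exon had only 2 and 0 reads in control whole-cell libraries and 0 and 0 with CHERP siRNA. These levels therefore do not measure transcripts that join the 165-base exon to exon 2. Measured between exons 3 and 4, where far more reads skip it, the levels were 0.0226 and 0.0420 against 0.0104 and 0.0153 in whole cells. In the cytoplasm they were 0.0165 and 0.0243 against 0.0106 and 0.0025.

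**Figure D3:**
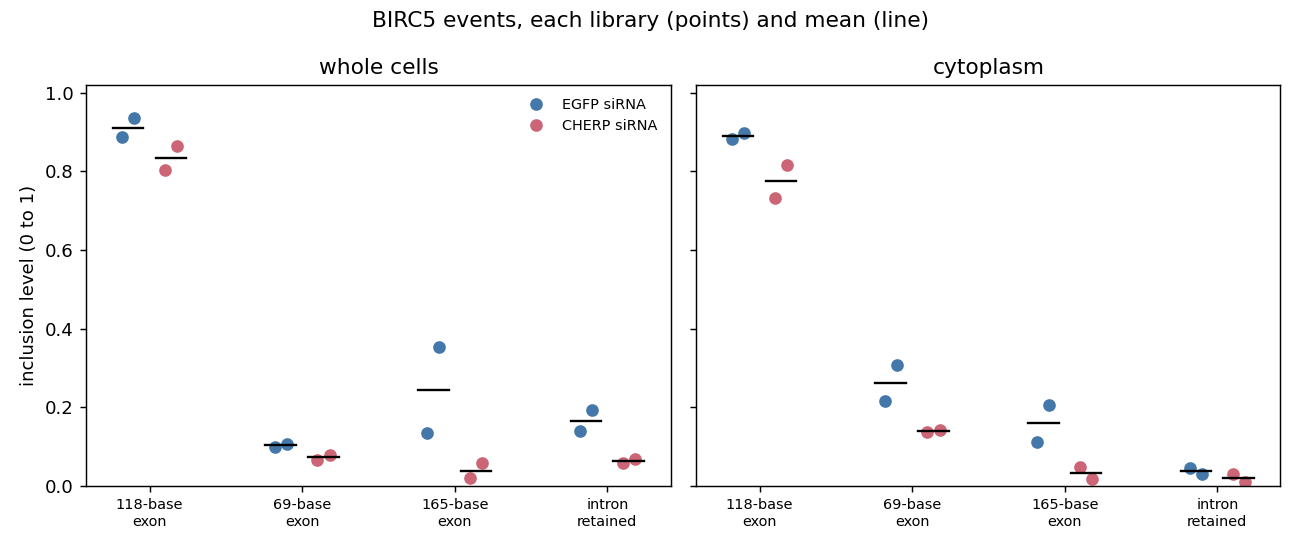
Inclusion level (0 to 1) of 3 BIRC5 exons (the 165-base exon as measured between exons 2 and 4) and of the retained 816-base segment in each library (points), with the mean of 2 (lines), in whole cells (left) and cytoplasm (right). The CHERP siRNA points are below the control points for each event shown, and no event passed the adjusted test. Exon 3 and the 165-base exon were chosen after their values were seen, and BIRC5 events that went the other way are not shown.

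AURKB, on chromosome 17 from 8108051 to 8113918 (minus strand), had 13 events in whole cells and 6 in the cytoplasm. Exon 2 of its reference transcript, at chr17:8113495-8113567, holds the start codon, so transcripts without it lack that codon. A 49-base form of the same exon (chr17:8113495-8113543) uses a second 3′ splice site 24 bases further on. Both splice sites are shown from 20 intron bases to 3 exon bases, with the AG in capitals.

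73-base form: tgtttcccttctccgcccAGctc
49-base form: cctccccctttctctctaAGgat

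The 73-base form had 56 and 40 inclusion reads and 23 and 21 skipping reads in control whole-cell libraries, and 32 and 22 against 37 and 30 with CHERP siRNA. The levels were 0.618 and 0.558 in controls and 0.365 and 0.327 with CHERP siRNA, a log2 odds ratio of -1.43 (95% interval -2.15 to -0.70). The unadjusted p was 0.0131, with an adjusted p of 0.546 and of 0.258 in the alternative. The 49-base form, chosen after its values were seen, had levels of 0.517 and 0.377 against 0.154 and 0.166 in whole cells, with the same skipping reads. In the cytoplasm the 73-base form had levels of 0.974 and 1 in controls and 0.861 and 0.958 with CHERP siRNA, from 1 and 0 skipping reads against 3 and 1. So few skipping reads leave the cytoplasmic change undetermined, with a 95% interval of the log2 odds ratio of -5.34 to 0.04. The skipping junction thus had 44 reads in the control whole-cell libraries together against 1 in the cytoplasm, a difference that cannot be told apart from read length and preparation.

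An alternative 3′ splice site of AURKB that adds 3 bases to an exon (8110494 to 8110688 in the longer form) had levels of 0.0334 and 0.0516 in control whole-cell libraries and 0.0613 and 0.0243 with CHERP siRNA, which overlap. Cytoplasmic levels were 0.0705 and 0.05 in controls and 0.153 and 0.153 with CHERP siRNA, from 6 and 4 inclusion reads against 6 and 6. Neither passed, with adjusted p of 0.992 and 0.736. Of the remaining AURKB exons, a 185-base exon had 17 reads of the rarer form in whole cells, with levels of 0.991 and 0.948 in controls and 0.870 and 0.961 with CHERP siRNA. A 102-base exon had 12 in the cytoplasm, with levels of 0.0113 and 0.0174 in controls and 0.0548 and 0.0090 with CHERP siRNA. Both are named after their values were seen, and the others rested on fewer than 10 reads of the rarer form.

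INCENP, on chromosome 11 from 61891470 to 61920641 (plus strand), had a 12-base coding exon at chr11:61908972-61908983, exon 11 of the reference transcript. It keeps the frame, with 918 residues with it and 914 without. The exon is shown in capitals with 20 intron bases on each side.

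12-base exon: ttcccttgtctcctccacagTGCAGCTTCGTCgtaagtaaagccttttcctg

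It had levels of 0.291 and 0.0441 in control whole-cell libraries, from 12 and 1 inclusion reads, and 0.330 and 0.328 with CHERP siRNA, from 8 and 9. The 95% interval of the log2 odds ratio ran from -0.65 to 2.49. In the cytoplasm 6 and 6 inclusion reads in controls stood against 0 and 4 with CHERP siRNA. A change of this exon was not detectable at this depth, with adjusted p of 0.546 and 0.786.

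CDCA8, on chromosome 1 from 38158153 to 38175391 (plus strand), was spliced almost fully in every library. Its 3 whole-cell exons had at most 5 skipping reads in a library and its 2 cytoplasmic exons at most 1. An event listed as mutually exclusive exons in the cytoplasm had levels of 0.300 and 0.328 in controls and 0.325 and 0.353 with CHERP siRNA. Both of its exons were near full inclusion as skipped exons, so this level compares reads on neighbouring constitutive exons.

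**Figure D4:**
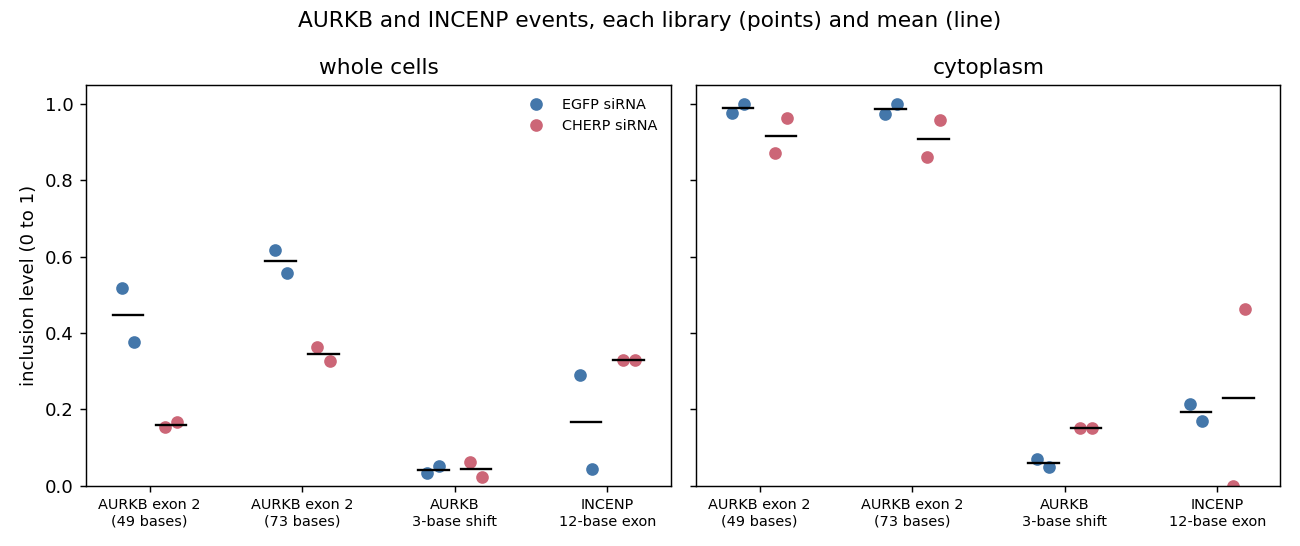
Inclusion level (0 to 1) of 2 forms of AURKB exon 2, the AURKB 3-base shift and the INCENP 12-base exon in each library (points), with the mean of 2 (lines), in whole cells (left) and cytoplasm (right). Both forms of exon 2 are lower with CHERP siRNA in both fractions, but they share their skipping reads and are not independent. In the cytoplasm these reads were 1 and 0 in controls and 3 and 1 with CHERP siRNA, which leaves the change there undetermined. The control libraries differ from each other most for INCENP in whole cells, at 0.291 and 0.0441.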

How the data were processed

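Poly(A) RNA of whole cells and cytoplasm was sequenced by the authors as stranded mRNA libraries. Per the labels, reads were aligned with STAR 2.5.2b to hg19, and the authors deposited rMATS tables of inclusion and skipping read counts for 5 event types in each fraction, plus RSEM 1.2.25 and EBSeq means for the cytoplasm. The version of rMATS is not given in the sources used here. The authors' p-values, fold columns and 20 inclusion level columns were not used. The 2 libraries of a group carry no number in the tables, and their order names them here. The members and lists were chosen with earlier results of these data known.

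Levels were log2(value + 0.01) of reads over effective length, summed over skipped exon and splice site events, scaled by median ratios, kept at a mean of at least 20 reads, and tested with limma 3.58.1 (R 4.3.3) without a trend, with Benjamini-Hochberg adjustment over all genes. A fold change on this scale understates that of low genes. Events were tested with a quasi-binomial model, Benjamini-Hochberg adjusted within the type, with the dispersion moderated by limma and then floored at 1. The dispersion was treated in 3 ways: this one, written down before the files were opened and kept as the reported test; one that takes it from events whose rarer form had 10 or more reads, written down at the same time; and one that floors it at 1 before moderation, added after seeing the data. The first was not exchanged for another on seeing their calls. Each was tested on simulated data: the level test recovered most changes, the reported event test recovered none, the second recovered a minority with few false calls, and the third made many false calls. Named events were all those past the threshold and, per member and type, the one with the most reads of the rarer form over the whole-cell libraries, if at least 10; other named items are stated as chosen later. Annotation is GENCODE 44 on GRCh37, the same build as hg19. Intervals hold counting error, widened by the moderated dispersion between libraries where that exceeds 1, and use a normal quantile. The p-values of events come from an F test with few degrees of freedom, so an interval can exclude 0 where the test does not pass. Where the dispersion was at its floor of 1, these p-values rest on counting error and not on the duplicates' own spread. The p-values of levels measure the spread between duplicates, moderated across genes. The sequence of 1 alternative exon is not reported here.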

Additional observations from a re-analysis of the deposited data

How the results depend on the processing

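No paired analysis was possible because the columns carry no replicate numbers. The number of members called in whole cells was 2 as reported, 4 with a pseudocount of 0.1, 4 with a trend on the mean level, 1 without a filter on low values, and between 0 and 3 when 1 library was left out. In the cytoplasm it lay between 2 and 3 under every alternative. The log2 fold changes of the members kept their direction under the alternatives run, which for cytoplasmic INCENP were only the fit without a filter and those without either CHERP library. Scaling by summed reads moved the median over all cytoplasmic genes from 0.01 to -0.09 and the share of calls that were higher from 51.9% to 39.8%, and left the called members called. When 1 library was left out, the difference between fractions ranged from -0.18 to 0.20 for BIRC5 and from -0.078 to 0.17 for CDCA8, with changes of sign, and from -0.58 to -0.22 for AURKB, without one. The difference in inclusion of the AURKB 3-base shift in whole cells ranged from -0.0182 to 0.0188, and that of the INCENP 12-base exon in the cytoplasm from -0.192 to 0.270; the cause was not tested. No event of the members was called under any event setting, while calls over all whole-cell events went from 3 to 878 with a floor of 1 before moderation (chosen after seeing the data), 961 with the dispersion from the rarer form, 977 with at least 10 reads, 1057 with at least 50 reads, and 0 with log2 odds or with adjustment over all 5 types. In the cytoplasm the same settings gave 90, 410, 76, 69 and 0 in place of 0. Depth limits INCENP most, with 17.5 cytoplasmic reads on average.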
